A study of Mus musculus with 2 samples.

Results

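The 10 genes described here encode regulators of transcription in meiotic and haploid male germ cells: Mybl1, Rfx2, Rfx3, Crem, Fhl5, Sox30, Sox5, Tbpl1, Gtf2a1l and Pou5f2. They were chosen by gene symbol, each symbol matched 1 gene of the deposited matrix, and they are 10 of the 27280 genes with at least 1 unique molecular identifier (UMI, a tag that marks 1 captured RNA molecule). All 10 were followed across the 2552 cells of both mice. The mice were wild-type littermates of the strain C57Bl/6J Crl, 8 weeks old, with no treatment. Each gave 1 droplet library of an unsorted cell suspension from a part of the testis tissue, which the authors strained to keep somatic cells few. Mouse 1 contributed 1237 cells and mouse 2 contributed 1315 cells. The study has no second condition, so the comparisons are between classes of germ cells within the same animals, with the mouse as the replicate (n = 2).

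Male germ cells pass from spermatogonia through the long prophase of meiosis to round spermatids, which then elongate and condense their chromatin with protamines. The regulators of transcription in these phases include relatives of general factors: Tbpl1 encodes a relative of the TATA-binding protein and Gtf2a1l a relative of a TFIIA subunit. Mybl1 (A-MYB) is known as an activator of meiotic genes and of piRNA precursors in pachytene spermatocytes, whereas CREM, aided by its coactivator FHL5 (ACT), is known for activating genes of the haploid phase such as those of the protamines and transition proteins. RFX2 and RFX3 are activators of ciliary genes, SOX30 and SOX5 are HMG box factors of the SOX family, and POU5F2 is a POU factor of the testis.

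The libraries held 27450497 and 30302332 UMIs, with medians of 17871 and 19184 UMIs per cell. Cells were clustered with the 10 genes and the related genes described below left out, so that none of them shaped the clusters. Of the 9 clusters, 6 held enough cells of each mouse to give a level: early spermatocyte-like (164 cells), late meiotic spermatocyte-like (526), a cluster of 687 cells that stayed without a name, later round spermatid-like (450) and 2 elongating or condensing spermatid-like clusters of 193 and 514 cells. The unnamed cluster had 7 of 11 markers of early round spermatids raised, among them Ssxb1, Ssxb2 and Ssxb3, and scored 0.290 for that class. It scored higher for late meiotic spermatocytes (0.307, with 3 of 12 markers raised) and for later round spermatids (0.376), none of whose markers were raised. The summed level of the early round markers was higher in later round cells and in both elongating clusters than in the unnamed cluster. The smaller elongating cluster scored 0.926 for its own class and 0.774 for later round spermatids, and 12 of 14 markers of the latter were raised in it. Of 11 markers of pachytene spermatocytes, 7 were raised in the early spermatocyte-like cluster (score 0.551, against 1.087 for its own class). In the late meiotic cluster 4 of them were raised (score 0.384). The name early spermatocyte-like thus does not exclude pachytene cells. Neither does the name late meiotic. That cluster averaged 33960 and 34036 UMIs per cell in the mice, against 20595 and 21817 in the early spermatocyte-like cluster. The paper places the highest RNA content in pachytene spermatocytes. Which cells of either cluster were pachytene was not tested. Spermatogonium-like, Sertoli-like and Leydig-like cells numbered 6, 7 and 5, too few for levels of these genes. The 13 Sertoli markers summed to between 24.9 and 178 CPM (a gene's UMIs relative to all UMIs of the group, as CPM scales it) in the 6 clusters and the 9 Leydig markers to between 25.8 and 64.6 CPM, against 26047 and 36798 CPM for mouse 1 in the Sertoli-like and Leydig-like cells.

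Of the 10 genes, 4 were highest in a spermatocyte cluster and 6 in the unnamed cluster or in spermatids. Mybl1 was highest in early spermatocyte-like cells. Rfx2, Tbpl1 and Pou5f2 were highest in late meiotic cells, and Gtf2a1l in the unnamed cluster. Rfx3, Crem and Sox5 were highest in later round spermatid-like cells, and Sox30 and Fhl5 in the smaller elongating cluster. This order is that of CPM. On the TMM scale of the fit of 6 clusters described below, which sets levels relative to the bulk of genes, Rfx3 and Gtf2a1l were higher by 0.19 ± 0.27 and 0.15 ± 0.16 (log2, SE) in the smaller elongating than in the later round cluster and Tbpl1 by 0.01 ± 0.13 in the unnamed than in the late meiotic cluster, none of them called. For 7 of the 10 genes the levels of both mice in the highest cluster lay above both levels in the next, and for Tbpl1, Crem and Rfx3 they overlapped. Such overlaps were not counted over all genes, so here and below they do not set the 10 genes apart. The levels are means over cells of a cluster, and fewer expressing cells or less RNA per cell cannot be told apart in them.

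**Figure D1:**
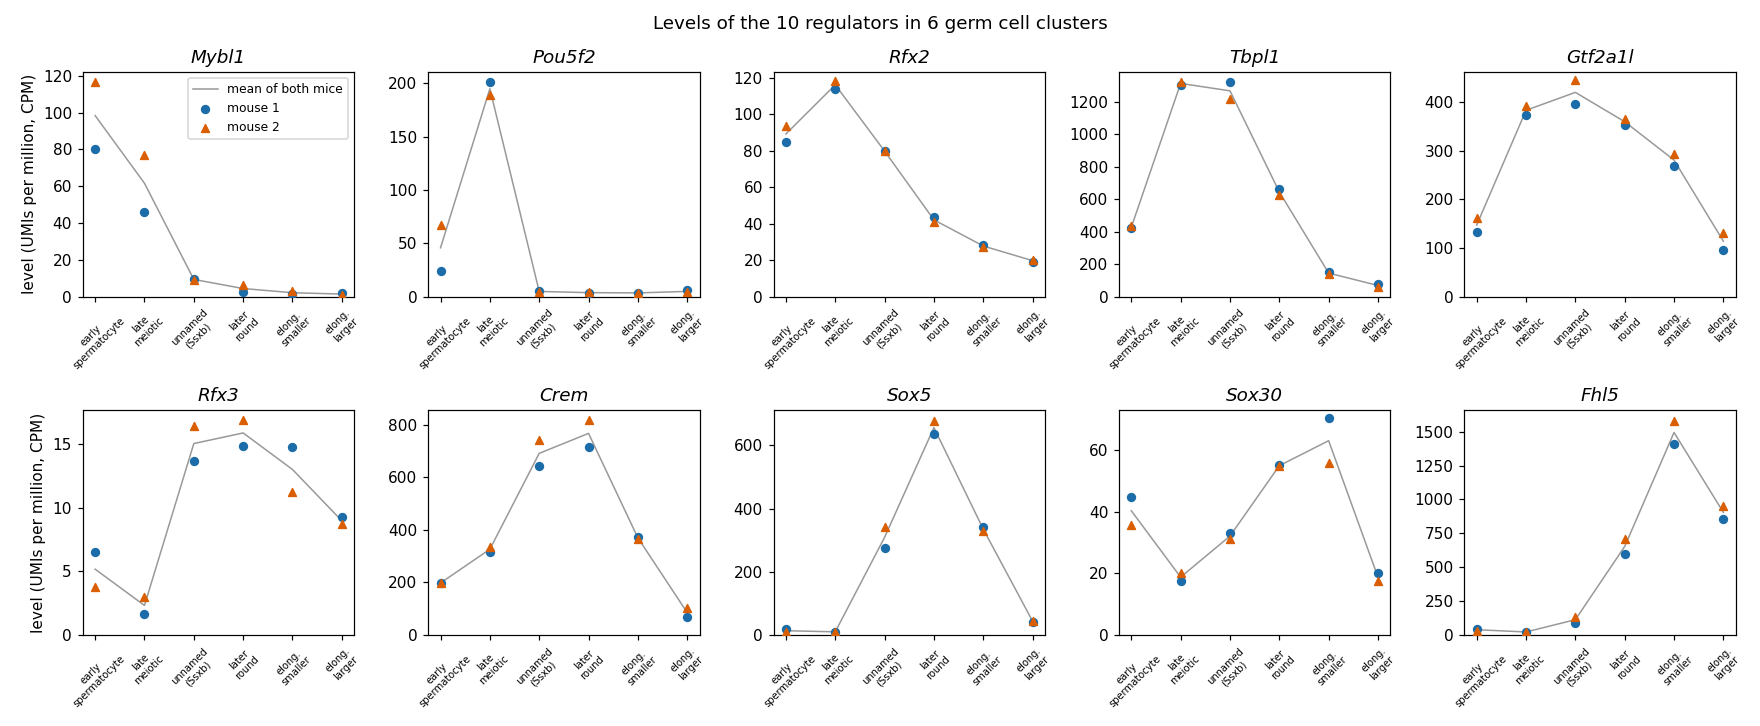
Level of each gene (vertical axis, CPM from 0) in the 6 germ cell clusters (horizontal axis, in order of maturation), with circles for mouse 1, triangles for mouse 2 and a line through their mean. Mybl1 falls from the left, Pou5f2 stands out in late meiotic cells at 201 and 189 CPM, and Fhl5 is highest in the smaller elongating cluster at 1407 and 1581 CPM.

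Mybl1 (chromosome 1, 9667415 to 9700209, minus strand, GRCm38) was measured with 1610 UMIs, found in 26.6% of all cells. Its level was 80.4 CPM in mouse 1 and 116 CPM in mouse 2 in early spermatocyte-like cells and 46.1 and 77.1 CPM in late meiotic cells. It was 9.53 and 9.29 CPM in the unnamed cluster, 2.59 and 6.36 CPM in later round cells, 1.48 and 2.90 CPM in the smaller elongating cluster and 1.96 and 0.965 CPM in the larger one. Both spermatocyte clusters stood above all later clusters in both mice, and in the last 3 clusters each overlapped with the next. Mouse 2 was higher than mouse 1 in 4 of the 6 clusters.

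Pou5f2 (chromosome 13, 78024902 to 78026295, plus strand) was high in late meiotic cells. There it reached 201 and 189 CPM, against 24.3 and 67.4 CPM in early spermatocyte-like cells. Its level was 5.72 and 4.28 CPM in the unnamed cluster, 3.53 and 4.18 CPM in later round cells, 3.94 and 3.26 CPM in the smaller and 5.88 and 4.18 CPM in the larger elongating cluster. The early spermatocyte-like levels differed 2.77-fold between the mice, while the 4 later clusters lay close together. Pou5f2 has 1 exon and lies inside the gene Fam172a on the same strand, without overlap of annotated exons. Fam172a itself was at 9.62 and 9.24 CPM in late meiotic cells and at 28.0 and 22.3 CPM in early spermatocyte-like cells, so the host gene had another order of levels.

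Rfx2 (chromosome 17, 56775897 to 56831013, minus strand) had 85.1 and 93.6 CPM in early spermatocyte-like cells, 114 and 118 CPM in late meiotic cells and 80.1 and 79.8 CPM in the unnamed cluster. It then stepped down to 43.6 and 40.8 CPM in later round cells, 28.5 and 27.2 CPM in the smaller and 19.3 and 20.3 CPM in the larger elongating cluster. No 2 neighbours in this order overlapped. The ratio of the highest to the lowest cluster was 5.87 in CPM. On the TMM scale of the fit of 6 clusters, Rfx2 did not fall beyond later round cells. It differed by -0.09 ± 0.17 (log2, SE) in the smaller elongating against the later round cluster. Between the larger and the smaller elongating cluster the difference was 0.09 ± 0.19, and neither was called.

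Tbpl1 (chromosome 10, 22703879 to 22731938, minus strand) was the gene with the most UMIs of the 10, at 49937. Early spermatocyte-like cells had 422 and 432 CPM, late meiotic cells 1305 and 1321 CPM and the unnamed cluster 1319 and 1216 CPM. Later round cells had 663 and 627 CPM, and the elongating clusters 151 and 141 CPM and 76.2 and 62.4 CPM. Late meiotic cells and the unnamed cluster overlapped, and in mouse 1 alone the unnamed cluster was the higher.

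Gtf2a1l (chromosome 17, 88668660 to 88715152, plus strand) varied 3.68-fold between its highest and lowest cluster. It had 133 and 161 CPM in early spermatocyte-like cells, 373 and 392 CPM in late meiotic cells, 395 and 444 CPM in the unnamed cluster and 353 and 365 CPM in later round cells. The elongating clusters had 268 and 293 CPM and 96.9 and 131 CPM. Mouse 2 was higher in 6 of 6 clusters. Counted as UMIs per cell, Gtf2a1l and also Mybl1 were highest in late meiotic cells.

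Crem lies on chromosome 18 and has 39 annotated transcripts, among which activator and repressor forms cannot be separated in counts per gene. It rose in steps from 198 CPM in both mice in early spermatocyte-like cells over 317 and 335 CPM in late meiotic cells to 641 and 740.2 CPM in the unnamed cluster. Later round cells had 716 and 818 CPM, and the elongating clusters 373 and 367 CPM and 68.9 and 101 CPM. The unnamed and the later round cluster overlapped. Fhl5 (chromosome 4, 25199908 to 25242876, minus strand), whose product binds CREM, followed later. It was at 47.7 and 30.3 CPM in early spermatocyte-like cells, 20.8 and 24.1 CPM in late meiotic cells and 91.7 and 135 CPM in the unnamed cluster. It reached 601 and 706 CPM in later round cells, 1407 and 1581 CPM in the smaller and 855 and 955 CPM in the larger elongating cluster. No neighbours in this order overlapped.

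Sox5 (chromosome 6, 143828425 to 144781977, minus strand) had 18.7 and 8.43 CPM in early spermatocyte-like and 10.4 and 9.79 CPM in late meiotic cells, which overlapped. The unnamed cluster had 276 and 342 CPM, later round cells 635 and 678 CPM, and the elongating clusters 342 and 329 CPM and 42.3 and 45.1 CPM. The later round level exceeded every other cluster in both mice, and the unnamed and the smaller elongating cluster overlapped. The annotated genes Gm44068 and Sox5it overlap the span of Sox5 on the same strand. Whether their exons overlap those of Sox5 was not examined, and reads in a shared stretch could affect its count. Sox30 (chromosome 11, 45980310 to 46017994, plus strand) had a minimum between early and late maxima. Its levels were 44.9 and 35.8 CPM in early spermatocyte-like cells, 18.8 ± 1.70 CPM (mean and SD of the mice) in late meiotic cells and 33.1 and 31.2 CPM in the unnamed cluster. It rose again to 55.1 and 54.9 CPM in later round cells and 70.4 and 55.8 CPM in the smaller elongating cluster, and was at 20.2 and 17.4 CPM in the larger one, where it overlapped with late meiotic cells.

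Rfx3 (chromosome 19, 27761721 to 28011166, minus strand) was the least measured gene, with 554 UMIs. Its levels were 6.54 and 3.79 CPM in early spermatocyte-like, 1.65 and 2.99 CPM in late meiotic, 13.7 and 16.4 CPM in the unnamed, 14.8 and 16.9 CPM in later round, 14.8 and 11.2 CPM in the smaller elongating and 9.24 and 8.69 CPM in the larger elongating cluster. The unnamed, later round and smaller elongating clusters overlapped with their neighbours in the order. Rfx2 was at its maximum in late meiotic cells, and Rfx3 at its minimum there.

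The late germ cell clusters contain large numbers of protamine transcripts, and free RNA can place such transcripts in any droplet. Prm1 served as a measure of this: its level outside the elongating clusters was between 1.59% and 3.35% of its highest cluster. The corresponding value in early spermatocyte-like cells was 2.61% for Fhl5 and 2.07% for Sox5, and in late meiotic cells it was 1.54% for Sox5 and slightly lower for Fhl5. These low levels lie within or just below the range of Prm1 outside its own cells, and a level of expression of Fhl5 and Sox5 in spermatocytes cannot be read from them. Pou5f2 in the unnamed cluster and all spermatid clusters was between 1.85% and 2.58% of its highest level, in the same range. Mybl1 in the unnamed cluster was higher, at 9.57%.

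Differences between consecutive classes were tested on the UMIs summed per mouse and class, with both elongating clusters joined and the unnamed cluster left out. The test was the quasi-likelihood test of edgeR over 14460 genes with Benjamini-Hochberg adjustment, on fold changes relative to the bulk of genes (TMM scaling). All 10 genes passed the filter on low counts. Each was called at 1 step or more, but the share of all genes called at any step was not counted. Many genes change along this path, so each count at a single step is given beside the share of all genes tested that was called.

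From early spermatocyte-like to late meiotic cells, 5 of the 10 genes rose and 1 fell, where 24.9% and 24.2% of all genes tested were called higher and lower. The genes that rose were Pou5f2 by 2.21 ± 0.26 on the log2 scale (SE, adjusted p = 5.8e-07), Tbpl1 by 1.89 ± 0.15 (adjusted p = 3.0e-09), Gtf2a1l by 1.63 ± 0.17 (adjusted p = 1.2e-07), Crem by 0.99 ± 0.16 (adjusted p = 2.7e-05) and Rfx2 by 0.64 ± 0.15 (adjusted p = 0.0017). Sox30 fell by 0.81 ± 0.18 (adjusted p = 0.001). Mybl1, at -0.46 ± 0.24, was not called (adjusted p = 0.13), but with the mouse as a block it was called lower at -0.42 (adjusted p = 0.012). Rfx3 at -0.81 ± 0.45, Fhl5 at -0.46 ± 0.22 and Sox5 at 0.02 ± 0.28 were not called. With the block 2 genes were called lower (25.9% of all genes), and with DESeq2 also 2, Sox30 and Fhl5 (24.3%). In mouse 1 alone the log2 fold change of Pou5f2 was 3.35 and in mouse 2 alone 1.64.

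From late meiotic to later round spermatid-like cells, 5 genes rose and 4 fell, and 36.9% and 37.7% of all genes tested were called higher and lower. Sox5 rose by 6.35 ± 0.20, or 81.3-fold (adjusted p = 8.1e-16), and Fhl5 by 5.20 ± 0.20, or 36.8-fold (adjusted p = 3.7e-15), from late meiotic levels just below the range of Prm1 given above. Rfx3 rose by 3.15 ± 0.29 (adjusted p = 3.6e-09), Sox30 by 1.88 ± 0.16 (adjusted p = 1.1e-09) and Crem by 1.57 ± 0.15 (adjusted p = 9.2e-09). Pou5f2 fell by 5.30 ± 0.32 (adjusted p = 5.1e-12), Mybl1 by 3.36 ± 0.31 (adjusted p = 4.7e-09), Rfx2 by 1.13 ± 0.15 (adjusted p = 8.9e-07) and Tbpl1 by 0.69 ± 0.14 (adjusted p = 0.00019). Gtf2a1l was the only member not called at this step, with 0.24 ± 0.16 (adjusted p = 0.17), though DESeq2 called it higher at 0.45. The median of all genes lay at -0.125, and the 10 genes had a median of 0.904.

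From later round to elongating or condensing spermatid-like cells, 1 gene rose and 3 fell, with 27.3% and 26.3% of all genes tested called higher and lower. Fhl5 rose by 1.66 ± 0.16 (adjusted p = 3.0e-08). Tbpl1 fell by 1.83 ± 0.15 (adjusted p = 1.8e-09), Sox5 by 1.15 ± 0.16 (adjusted p = 2.8e-06) and Crem by 1.07 ± 0.15 (adjusted p = 4.2e-06). Pou5f2, at 5.18 and 3.75 CPM in these cells, differed by 1.03 ± 0.45 on the log2 scale (adjusted p = 0.058), which was called with the mouse as a block (1.04, adjusted p = 0.0035). With it 2 genes were called higher, against 28.8% of all genes, and DESeq2 called the same 2, Fhl5 and Pou5f2, against 25.9%. Sox30 (0.27 ± 0.15), Rfx3 (0.25 ± 0.25), Rfx2 (-0.02 ± 0.16), Gtf2a1l (-0.13 ± 0.16) and Mybl1 (-0.52 ± 0.51) were not called.

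This last step depends on the scaling. Prm1, Prm2, Tnp1 and Tnp2 took 6.62% and 16.8% of the UMIs of the smaller and the larger elongating cluster against at most 0.628% elsewhere, and the TMM factors of the elongating sums were 0.548 and 0.546. Without TMM scaling the median log2 fold change of all genes moved to -0.248, -0.453 and -0.857 at the 3 steps. The members called then were 5 higher and 3 lower at the first step, against 19.3% and 31% of all genes. They were 5 and 4 at the second step (33.5% and 45.8%) and 1 and 7 at the third (14.9% and 50%). Mybl1, Rfx2, Gtf2a1l and Sox30 were the members added to those called lower at the third step. Sox30 turned from 0.27 to -0.57 and Rfx3, not called, from 0.25 to -0.59. Pou5f2 went from 1.03 to 0.19 (adjusted p = 0.73), at levels that lie in the range of Prm1 given above. Fhl5 rose and Crem, Sox5 and Tbpl1 fell under both scalings.

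**Figure D2:**
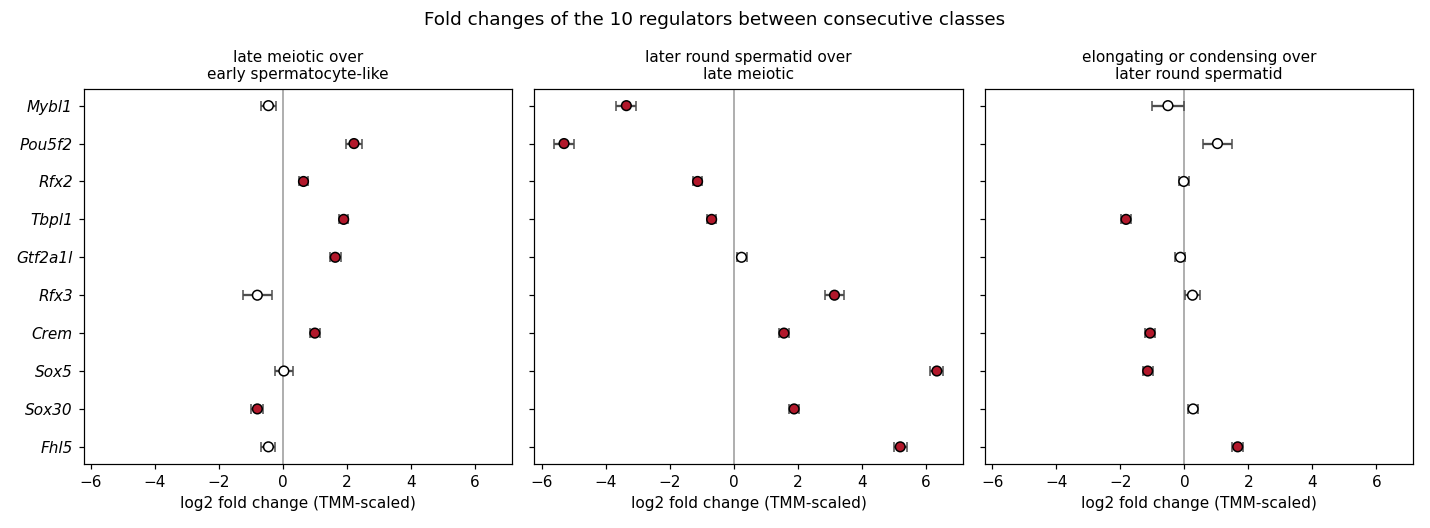
Log2 fold change of each gene after TMM scaling (horizontal axis) at the 3 steps between consecutive classes, with bars for 1 SE, filled circles for genes called at an adjusted p under 0.05 and open circles for the others. Sox5 and Fhl5 lie farthest to the right in the middle panel at 6.35 and 5.20, and Pou5f2 farthest to the left at -5.30.

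The joined classes hide part of the course, so a second fit kept 6 clusters apart (13902 genes tested). It was added after the clusters had been seen. Entry into the unnamed cluster from late meiotic cells already brought 5 genes up and 3 down, with 31.9% and 30.6% of all genes called higher and lower. Sox5 rose by 4.99 ± 0.19 (adjusted p = 1.5e-15), Rfx3 by 2.80 ± 0.27 (adjusted p = 5.8e-09), Fhl5 by 2.40 ± 0.20 (adjusted p = 3.1e-10), and so did Crem (adjusted p = 1.2e-06) and Sox30 by 0.84 ± 0.16 (adjusted p = 7.2e-05). Pou5f2 fell by 5.24 ± 0.29 (adjusted p = 3.0e-13), Mybl1 by 2.64 ± 0.27 (adjusted p = 1.1e-08) and Rfx2 by 0.48 ± 0.13 (adjusted p = 0.0034), while Tbpl1 at 0.01 ± 0.13 was not called. The fall of Tbpl1 came at the following step.

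From the unnamed cluster to later round cells, 4 genes rose and 2 fell, against 25.8% and 20.4% of all genes. Fhl5 rose by 2.77 ± 0.19, Sox5 by 1.33 ± 0.15, Sox30 by 1.02 ± 0.15 and Crem by 0.40 ± 0.15. Tbpl1 fell by 0.73 ± 0.13 and Rfx2 by 0.68 ± 0.14. The largest adjusted p of these 6 genes was 0.04. Rfx3 had 0.32 ± 0.22 and Mybl1 -0.75 ± 0.36, and they were not called, but with the mouse as a block Mybl1 was (adjusted p = 0.0089).

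From later round cells to the smaller elongating cluster, 2 genes rose and 3 fell, against 23.5% and 20.6% of all genes. Fhl5 rose by 1.70 ± 0.18 and Sox30 by 0.69 ± 0.16, whereas Tbpl1 fell by 1.64 ± 0.14, Crem by 0.55 ± 0.16 and Sox5 by 0.46 ± 0.15. From the smaller to the larger elongating cluster, 0 genes were called higher and 5 lower (16% and 23.3% of all genes), with 5 at an unadjusted p under 0.05. Sox5 fell by 2.35 ± 0.17, Crem by 1.53 ± 0.17, Sox30 by 1.15 ± 0.18, Gtf2a1l by 0.71 ± 0.16 and Tbpl1 by 0.48 ± 0.15. Fhl5, at -0.14 ± 0.17, was not called there. DESeq2 and the fit with the mouse as a block each called Pou5f2 higher at that step, and DESeq2 did not call Tbpl1.

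Levels were also followed in 20 bins of 127 germ cells each along an ordering by diffusion pseudotime. In this ordering Mybl1 was highest in bin 1 in both mice, Pou5f2 in bin 2, Crem in bin 12, Sox5 in bin 13 and Sox30 in bin 20. The highest bins in mouse 1 and mouse 2 were 4 and 6 for Rfx2, 6 and 7 for Tbpl1, 6 and 8 for Gtf2a1l, 9 and 13 for Rfx3 and 14 and 15 for Fhl5. The last bins mixed later round and elongating cells, with 41 of the former and 58 and 28 of the smaller and the larger elongating cluster in bin 20. Levels in them are averages over these classes. The larger elongating cluster was most frequent earlier, with 103 cells in bin 16, where Prm1 was highest in both mice. These bins are thus not in order of maturation, and the maximum of Sox30 in bin 20 cannot be read as later than that of Fhl5.

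A second ordering, by the angle of the cells in the plane of the first 2 principal components, had a Spearman's rho of 0.931 with the first over 2540 cells. In it later round and elongating cells met mainly in bin 15, with 54 of the former and 73 of the smaller elongating cluster. It ran from early spermatocyte-like to late meiotic, unnamed, later round, smaller and larger elongating cells. Its start was set midway between the larger elongating and the early spermatocyte-like cluster, and its direction from the latter to late meiotic cells. Its ends and direction are thus settings and no result. The highest bin was the same in both mice for 7 of the 10 genes. Mybl1 was highest in bin 1 (85.6 and 125 CPM). Pou5f2 peaked in bin 3, at 316 and 354 CPM, and was at 14.3 and 11.3 CPM in bin 1 and at 21.5 and 23.1 CPM in bin 5. Its peak coincided with the cells richest in RNA, since bin 3 had the highest median of all bins, 59391 UMIs per cell, and the part of that depth in the peak was not tested.

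Rfx2, Tbpl1 and Gtf2a1l peaked together in bin 6, which held 63 late meiotic cells and 64 of the unnamed cluster. Their levels there were 124 and 122 CPM for Rfx2, 1629 and 1573 CPM for Tbpl1 and 457 and 479 CPM for Gtf2a1l. Crem peaked in bin 12 (809.5 and 882 CPM) and Sox5 in bin 13 (690.1 and 724 CPM). These bins consisted almost entirely of later round cells, 122 and 126 of 127. Sox30 peaked in bin 16 in mouse 1 and bin 15 in mouse 2, and Fhl5 in bins 17 and 16, at 1659 and 1748 CPM. Rfx3 peaked in bins 13 and 10, at 21.1 and 19.8 CPM. The order of the maxima in CPM was thus Mybl1, Pou5f2, then the group of Rfx2, Tbpl1 and Gtf2a1l, then Crem and Sox5, then Sox30 and Fhl5. Counted as UMIs per cell, the first 5 of these genes were not set apart: all had their maximum in bin 3, the bin richest in RNA, except Tbpl1 in mouse 1 with bin 4. Crem then peaked in bins 11 and 10, Sox5 in bins 13 and 14, Sox30 in bin 15 and Fhl5 in bin 16. The maxima of Crem and its coactivator gene Fhl5 lay in different bins in both mice: in bin 12 Fhl5 was at 373 and 403 CPM, and in bin 17 Crem was at 97.0 and 117 CPM. Their ranges overlapped broadly, since later round cells had 716 and 818 CPM of Crem and 601 and 706 CPM of Fhl5.

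**Figure D3:**
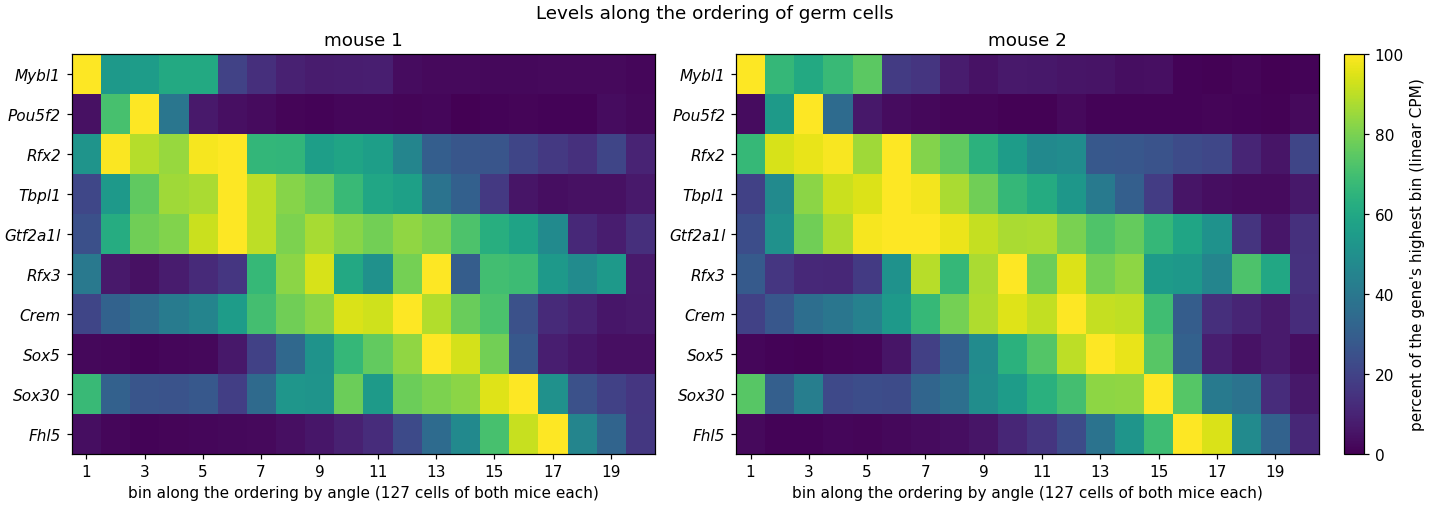
Level of each gene as a percentage of its highest bin (colour, linear CPM) in 20 bins along the ordering of germ cells by angle (horizontal axis), for mouse 1 and mouse 2. The bright band runs from Mybl1 in bin 1 over Rfx2, Tbpl1 and Gtf2a1l in bin 6 to Fhl5 in bins 17 and 16.

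The 10 genes were compared with each other over the 20 bins of the angle, as Pearson's r of log2(CPM + 10) in each mouse. These values describe the bins, which share the depth and makeup of their cells, and carry no test. Of 45 pairs, 15 had r above 0.5 in both mice and 8 below -0.5. Among the closest pairs were Rfx2 with Tbpl1 (0.89 and 0.89), Crem with Gtf2a1l (0.88 and 0.85), Tbpl1 with Gtf2a1l (0.79 and 0.82), Rfx3 with Sox5 (0.76 and 0.85) and Crem with Tbpl1 (0.79 and 0.78). Fhl5 was opposite to Rfx2 (-0.87 and -0.85) and Mybl1 (-0.82 and -0.83). Crem with Fhl5 had -0.23 and -0.12, and Rfx2 with Rfx3 -0.32 and -0.30. Over the bins of the diffusion pseudotime 15 pairs were above 0.5 and 12 below -0.5, Crem with Tbpl1 had 0.60 and 0.34, and Crem with Fhl5 had -0.11 and 0.23, so that the last pair had no common sign.

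**Figure D4:**
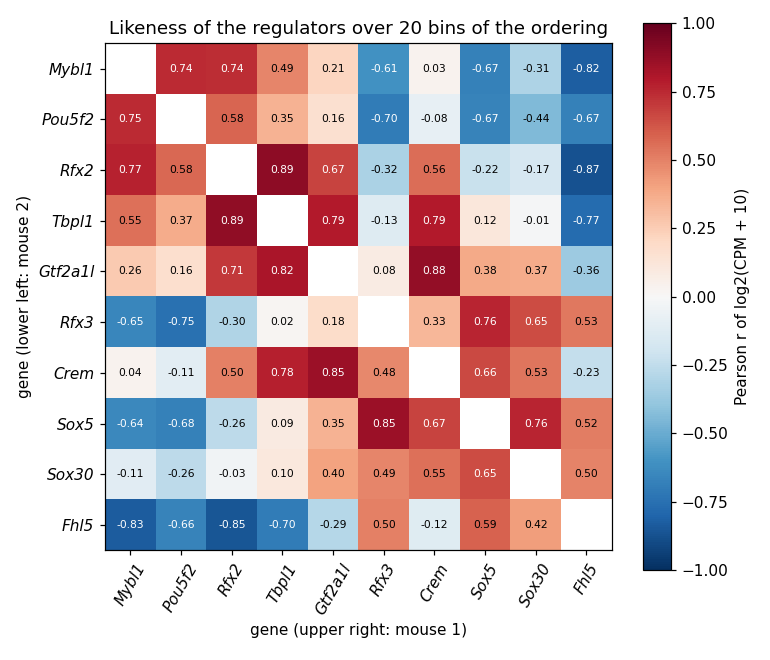
Pearson's r of log2(CPM + 10) over the 20 bins by angle for each pair of the 10 genes (genes on both axes, r as colour and number), with mouse 1 above the diagonal and mouse 2 below it. Rfx2 and Tbpl1 share the darkest red at 0.89 in both mice, and Fhl5 is blue against Mybl1, Pou5f2, Rfx2 and Tbpl1, down to -0.87.

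Among 7896 genes with at least 500 UMIs, those with the pattern most like each member over 20 bins of the diffusion pseudotime are given with the smaller r of the mice. The late bins of this ordering mix classes and are not in order of maturation. Sox5 had 1700061G19Rik (0.997) and 1700007K09Rik (0.995), and Fhl5 had Actg2 (0.995) and Ccdc169 (0.994). Tbpl1 had Tomm22 (0.991) and Rtn3 (0.990), and Rfx2 had Rp9 (0.984) and Stk33 (0.982). Mybl1 had Rad50 (0.980) and Top1 (0.979), Gtf2a1l had Fdft1 (0.973) and 1700020D05Rik (0.970), and Pou5f2 had Gm31105 (0.967) and Gm43352 (0.961). Likeness was lower for Crem, with Nme5 (0.946) and Glipr1l1 (0.943), for Rfx3, with Rpain (0.913) and Suv39h2 (0.902), and for Sox30, with Ntan1 (0.910) and Bet1 (0.910). Along the angle, Tomm22 and Fdft1 were again nearest to Tbpl1 (0.996) and Gtf2a1l (0.980), while the nearest gene differed for the other 8.

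The share of cells with at least 1 UMI was taken after each cell had been thinned to 5000 UMIs, which left out no cell. In its highest cluster, 5 of the 10 genes were found in over 50% of the cells: Fhl5 in 99.5%, Tbpl1 in 99.6%, Crem in 96.0%, Sox5 in 95.6% (exact 95% binomial interval 93.2 to 97.3) and Gtf2a1l in 88.2% (85.6 to 90.5). Rfx2 was found in 48.9% of late meiotic cells (44.5 to 53.2), Pou5f2 in 40.9% (36.6 to 45.2), Mybl1 in 29.3% of early spermatocyte-like cells (22.4 to 36.9), Sox30 in 24.4% of the smaller elongating cluster and Rfx3 in 7.56% of later round cells (5.29 to 10.4). The intervals cover counting error only. Without thinning these last 5 shares were 91.6%, 63.9%, 81.1%, 68.9% and 28.7%.

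Shares in cells in which a gene was low serve for comparison. Pou5f2 was found in 2.89% of later round cells (unthinned 8.00%, median depth 21850 UMIs) against 40.9% of late meiotic cells (median 20843). Sox5 was found in 7.03% of late meiotic cells and Fhl5 in 13.7%, against 95.6% and 91.1% of later round cells. The unnamed cluster was between these for both, at 69.7% for Sox5 and 40.8% for Fhl5 (median 18803).

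The bases upstream of the RefSeq transcription starts were read for 8 of the 10 genes, all but Mybl1 and Crem, in 9 windows of 250 bases on GRCm38.p6 (Fhl5 has 2). The letters TAACNG and CAACNG, the core bound by MYB proteins, were searched on both strands. They were found in 6 of the 9 windows, against 43.1% of 32851 windows of all genes. Rfx2 had 4 matches, and 3 or more were found in 2.82% of all windows. The windows of the genes with a maximum in late meiotic cells or the unnamed cluster that held the core, and that of Sox5 with the largest rise at the entry into round spermatids, are shown 5′ to 3′ on the strand of the gene, with the core in capitals.
Rfx2, chr17:56831009-56831258, minus strand: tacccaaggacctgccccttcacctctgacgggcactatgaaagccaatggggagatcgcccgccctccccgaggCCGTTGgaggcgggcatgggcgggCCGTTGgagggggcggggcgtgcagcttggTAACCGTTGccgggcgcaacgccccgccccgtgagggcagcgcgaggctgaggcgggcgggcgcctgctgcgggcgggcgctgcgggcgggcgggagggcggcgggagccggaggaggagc
Gtf2a1l, chr17:88668410-88668659, plus strand: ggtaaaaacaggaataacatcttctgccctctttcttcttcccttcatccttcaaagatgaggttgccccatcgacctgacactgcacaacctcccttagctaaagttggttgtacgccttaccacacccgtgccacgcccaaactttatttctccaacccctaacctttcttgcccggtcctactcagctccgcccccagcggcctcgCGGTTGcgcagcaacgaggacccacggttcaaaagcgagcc
Pou5f2, chr13:78024652-78024901, plus strand: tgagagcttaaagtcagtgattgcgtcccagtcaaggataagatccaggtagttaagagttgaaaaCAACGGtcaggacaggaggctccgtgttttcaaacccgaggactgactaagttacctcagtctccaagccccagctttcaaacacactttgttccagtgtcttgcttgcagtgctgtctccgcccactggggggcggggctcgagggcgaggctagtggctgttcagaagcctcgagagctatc
Sox5, chr6:143947107-143947356, minus strand: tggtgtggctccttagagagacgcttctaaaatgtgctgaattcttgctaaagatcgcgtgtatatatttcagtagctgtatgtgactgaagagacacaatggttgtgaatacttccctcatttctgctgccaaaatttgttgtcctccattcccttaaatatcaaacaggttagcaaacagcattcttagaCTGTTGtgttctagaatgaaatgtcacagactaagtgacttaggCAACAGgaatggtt

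The 4 matches of Rfx2 began 175, 151, 121 and 118 bases before the start, and the last 2, on opposite strands, overlapped. The letters GTTGCC, only a part of the site that RFX factors bind and found in 10.4% of all windows, also lay there. They began 116 bases before the start and overlapped the last MYB match. Gtf2a1l held these RFX letters 188 bases and the MYB core 41 bases before its start. Pou5f2 held 1 MYB core, at 184 bases, as did Sox30 at 70 bases and the inner window of Fhl5 at 176 bases. The windows of Tbpl1 and Rfx3 held none. The Sox5 window lies inside the annotated gene, ahead of an internal start. It held MYB cores at 58 and 14 bases and the RFX letters at 16 bases, which overlapped the nearer MYB core. The cAMP response element core TGACGT, the letters bound by CREM, was in 0 of the 9 windows, against 6.47% of all windows. The SOX core AACAAT was in 1, the outer window of Fhl5 (9.42% of all windows). These matches describe the letters only.

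Relatives of the 10 genes and genes with published control by them were set beside them, in lists that held 61 further genes, 55 of which were tested in the fit of 4 classes. These lists were chosen with earlier results of these data known and support no direction. Over all lists, 12 rose and 20 fell at the first step, 23 rose and 22 fell at the second, and 17 rose and 18 fell at the third, where 8 rose and 29 fell without TMM scaling. Of all genes tested, 24.9% and 24.2% were called higher and lower at the first step, 36.9% and 37.7% at the second and 27.3% and 26.3% at the third (14.9% and 50% without TMM scaling). The counts of each list are to be read against these shares.

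Among 8 spermatid genes with published CREM control, 0 were called at the step to late meiotic cells, while 8 of 8 rose at each of the later steps (36.9% and 27.3% of all genes). Prm1 rose into later round cells by 1.40 ± 0.31. Late meiotic cells (1.59%) and later round cells (3.35%) themselves set the 2 ends of its range given above. That range therefore cannot judge this rise, and whether later round cells express Prm1 was not tested. In later round cells Tnp2 was at 1267 and 1073 CPM and Prm2 at 1327 and 1195 CPM. In early spermatocyte-like cells they were at 1221 and 617 CPM and at 1105 and 728 CPM. In the larger elongating cluster Tnp2 reached 34777 and 28499 CPM and Prm2 30939 and 33717 CPM. At the lower levels free RNA and expression cannot be told apart. At the last step, without TMM scaling, Camk4 turned from 0.66 to -0.18, Ace went from 0.95 to 0.11 and Odf1 from 0.91 to 0.063, and the other 5 stayed above 1.5. Their medians were 2.69 and 3.48 on the log2 scale, against -0.125 and -0.019 over all genes tested. At an unadjusted p under 0.05, 2 of the 8 were lower at the first step, and these, Tnp1 and Tnp2, were called lower with the mouse as a block. Tnp1 went there from 1027 and 500 CPM to 446 and 368 CPM, levels at which free RNA and expression cannot be told apart either. Camk4, a kinase gene, rose the most into later round cells, by 6.12 ± 0.20 (adjusted p = 8.3e-16). Prm1, a protamine gene, rose the most into elongating cells, by 5.32 ± 0.37 (adjusted p = 1.3e-10), and Prm2 rose there by 5.11 ± 0.25. At the last step Crem itself fell by 1.07, and Fhl5 rose by 1.66.

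Of 7 piRNA genes with published A-MYB control, 5 fell and 1 rose from early spermatocyte-like to late meiotic cells, and 6 fell into later round cells, where the median was -1.59 (24.2% and 37.7% of all genes were called lower at these steps). Piwil1, which encodes the PIWI protein MIWI, was at 864 and 793 CPM in early spermatocyte-like cells, 162 and 172 CPM in late meiotic cells and 9.42 and 10.5 CPM in later round cells, and fell by 3.72 ± 0.18 at the second step (adjusted p = 1.2e-13). Mov10l1, an RNA helicase gene, fell the most at the first step, by 2.80 ± 0.21 (adjusted p = 1.4e-09). Mael, the gene of the list with the most UMIs, was called at no step and stood at 1131 and 1187 CPM in later round cells, in which Mybl1 was at 2.59 and 6.36 CPM. At the third step 1 gene rose and 2 fell.

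Of the 8 ciliary genes with published RFX binding, 2 rose and 2 fell at the first step, 3 rose and 3 fell at the second and 2 rose and 4 fell at the third, beside the shares of all genes given above. Foxj1, itself a regulator of ciliary genes, rose by 3.06 ± 0.22 into later round cells (adjusted p = 9.4e-11) and was highest in the unnamed cluster at 90.5 CPM in both mice. Ift172, a gene of intraflagellar transport, rose by 3.27 ± 0.16 into elongating cells (adjusted p = 1.0e-12), where Rfx2 and Rfx3 were not called. Ift88 fell by 1.67 ± 0.15 into late meiotic cells and Ift122 by 0.96 ± 0.16 into later round cells.

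**Figure D5:**
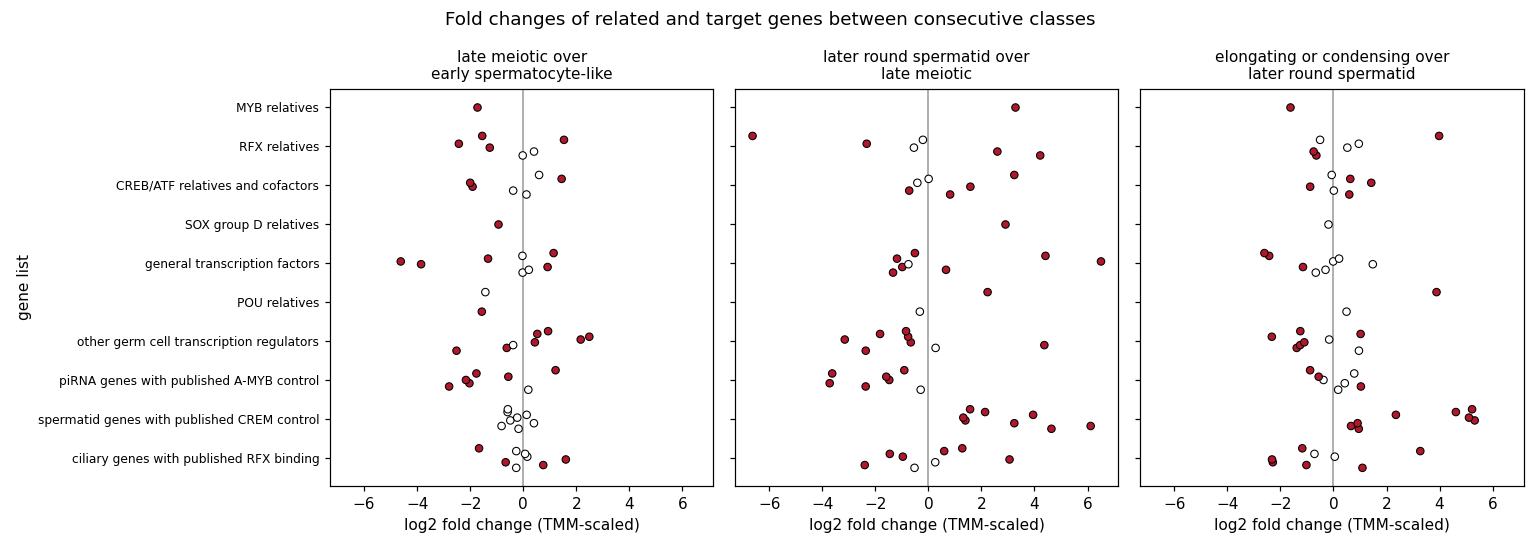
Log2 fold changes after TMM scaling (horizontal axis) of the related and target genes tested, 1 line per list, at the 3 steps between consecutive classes, with filled circles for genes called at an adjusted p under 0.05. The 8 genes with published CREM control lie right of 0 in the middle and right panels (Camk4 in the right panel only with TMM scaling), and the piRNA genes lie left of 0 in the middle panel, where 6 of 7 were called.

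Of the 6 other RFX genes and partners, 1 rose and 3 fell at the first step, 2 rose and 2 fell at the second and 1 rose and 2 fell at the third. Rfx4 rose at the second step by 2.60 ± 0.16 and was highest in later round cells, as Rfx3 was, at 107 and 112 CPM. Rfxap, a subunit gene of the RFX complex of class II genes, was at 64.5 and 44.7 CPM in early spermatocyte-like cells and at 0 and 0.167 CPM in later round cells. Rfxank, of the same complex, was highest in late meiotic cells at 22.5 and 24.1 CPM, and Rfx7 was called lower at the first step, by 2.43 ± 0.37.

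Among the CREB and ATF relatives and cofactors, 6 of 9 were tested, with 1 higher and 2 lower, 3 higher and 1 lower, and 3 higher and 1 lower at the 3 steps. Fhl4, the testis relative of Fhl5, rose by 1.45 ± 0.19 into late meiotic cells to its highest level of 2309 and 2459.9 CPM and was not called at the next step, at which Fhl5 rose. Kif17, a motor protein gene known for moving the FHL5 protein, rose by 3.24 ± 0.20 into later round cells. Atf1 rose by 0.82 ± 0.13 into later round cells, and Ep300, a coactivator gene with 191 UMIs, rose by 1.42 ± 0.44 into elongating cells. In CPM, Ep300 was at 2.59 and 2.01 in later round cells and at 5.91 and 8.70 in the smaller elongating cluster. In the larger one it was at 0 and 0.965 CPM, below later round cells. Of the 3 called higher at the last step, Fhl4 and Atf1 turned from 0.63 and 0.60 to -0.21 and -0.25 without TMM scaling. Ep300 went from 1.42 to 0.58.

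For the general transcription factors, 8 of 9 genes were tested and 2 rose and 3 fell, 3 rose and 4 fell, and 0 rose and 3 fell at the 3 steps. At the third step 3 were at an unadjusted p under 0.05, and 0 were called higher also with the mouse as a block. Tbp, the parent gene of the family of Tbpl1, moved with it: it rose at the first step (adjusted p = 7.2e-06) and then fell by 0.51 ± 0.15 and 2.60 ± 0.20. Gtf2a1, the relative of Gtf2a1l that is used in most cells and named here after its values were seen, fell by 1.33 ± 0.24 into later round cells, at which step Gtf2a1l was not called. Gtf2b, which encodes TFIIB, rose by 0.92 ± 0.15 and then fell by 0.98 ± 0.14 and 1.15 ± 0.16. Gtf2a2, which encodes the partner subunit, rose by 0.67 ± 0.15 into later round cells, to 643 and 599.7 CPM. Taf4b was at 0.194 and 0.136 CPM in late meiotic cells and at 10.8 and 17.4 CPM in later round cells.

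Sox6, the tested relative of Sox5, fell by 0.94 ± 0.20 and then rose by 2.89 ± 0.17 into later round cells, the step at which Sox5 rose. Mybl2, with 73 UMIs in the summed classes, was at 2.80 and 2.11 CPM in early spermatocyte-like cells, 0.680 and 0.408 CPM in late meiotic cells and 4.47 and 4.52 CPM in later round cells, and Myb had 0 UMIs in the 6 clusters. Pou5f1 was highest in the smaller elongating cluster, at 30.0 and 22.1 CPM, and was at most 1.84 CPM in the other 5. For Pou5f1 the paper reports a difference between transcripts and published protein data, which it says non-coding isoforms known from earlier work could account for. Counts per gene do not separate such isoforms. Pou2f1 fell by 1.56 ± 0.28 into late meiotic cells, in which Pou5f2 rose. Of 8 other germ cell regulators, 5 rose and 2 fell at the first step, with Ovol2 higher by 2.49 ± 0.18. At the second step 1 rose, Hsf2 by 4.37 ± 0.20, and 6 fell, among them Kctd19 by 0.66 ± 0.14. At the third step 1 rose and 5 fell, with Ovol2 lower by 2.32 ± 0.19 and Brdt, a bromodomain gene of the testis, lower by 1.39 ± 0.14.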

How the data were processed

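Strained testis cell suspensions of 2 mice were profiled by 10x Genomics droplet sequencing. Per the submitters' processing notes and the study's methods, the authors used bcl2fastq 2.17.1.14, Cell Ranger 2.0.0 and the mm10 build with Ensembl annotation and repeats, and combined both libraries with downsampling of the deeper one. The deposited values are UMI counts per gene and cell, not normalized. The downsampling lowers the depth of 1 library, and the reads were not used here. The matrix has 50686 gene rows and 1182 repeat rows, whose 1.42% of UMIs were left out of sums and tests. Cells held 7114 to 154431 UMIs, and 0 barcodes were shared between the mice.

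Cells were grouped by K-means (K = 9, 10 principal components, seed 42) on log2 values scaled to the median depth, without 71 genes described here. A cluster took the name of the class with the best mean marker score if at least 3 markers reached 1.5 times the CPM of all cells. The 25 doublets called were kept. UMIs were summed per mouse and class and tested with edgeR 4.0.16 (R 4.3.3), as the quasi-likelihood test with TMM factors, filterByExpr and an adjusted p under 0.05. DESeq2 1.42.0 was an alternative. Both classes of a comparison come from the same 2 animals, which pairs the sums: deviations of the same mouse correlated between classes with r from 0.0413 to 0.173 over 14460 genes. The p-values rest on the spread between these 2 mice within classes, which edgeR estimates over all classes and shares among genes. They do not measure the spread of a single gene alone. With the mouse as a block the shared part weighs most. Calls added there, such as those of Mybl1 and Pou5f2, rest mainly on it. On counts simulated for later round against late meiotic cells, edgeR recovered 200 of 200 genes changed 4-fold, with 4 false calls among 13099 genes. In that simulation all other genes kept their level in every class, and the changed genes were drawn from well counted ones. The spread was a fixed assumed value, without pairing of the mice. The recovery thus does not show how the test fares where many genes change, as in these data.

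Pseudotime was computed with scanpy 1.11.5, starting at the early spermatocyte-like cell with the highest mean score of early spermatocyte markers. Levels in bins were compared as log2(CPM + 10), in Python 3.11.15. The ordering by angle was described in more depth once the mixing of late spermatids in the pseudotime had been seen. Upstream windows came from RefSeq on GRCm38.p6 and gene positions from GENCODE on GRCm38. The named genes are all 10 members and, per list, the gene with the largest called change at each step and the 2 with the most UMIs. A gene that this rule names is not reported here. The 10 genes and the lists were chosen with earlier results of these data known.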

Additional observations from a re-analysis of the deposited data

How the results depend on the processing

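Of the counts that answer a comparison, 96 values under alternatives stayed within 1.5 times the reported count and 12 moved. Some alternatives could hardly move a count. Another random seed gave clusters with the same numbers of cells. With K = 10, or with the genes described here kept in the clustering, the large clusters changed by a few cells at most. Values that stayed under these settings thus say little about stability. From early spermatocyte-like to late meiotic cells, the members called lower went from 1 to 2 with DESeq2 (Fhl5 added), to 2 with the replicate block, that is with the mouse as a paired term (Mybl1 added), and to 3 without TMM scaling. From later round to elongating cells, the members called higher went from 1 to 2 with DESeq2, the replicate block or without doublets (Pou5f2 added) and to 3 with 2000 variable genes. Those called lower went from 3 to 5 with 2000 variable genes and to 7 without TMM scaling. The share of all genes called was not counted with 2000 variable genes or without doublets. At this step the median of all genes lay at -0.347 with 2000 variable genes, against -0.019 in the reported fit. The related and target genes went there from 17 higher and 18 lower to 8 and 29 without TMM scaling. Members found in over 50% of the cells of their highest cluster went from 5 to 9 without thinning. The block changed no other call of a member between the 4 classes. Of single genes, Tbpl1 was no longer called from late meiotic to later round cells with 2000 variable genes (-0.16). That setting left no unnamed cluster, and its later round clusters held 819 and 314 cells against 450. All values given here for it therefore compare classes made of other cells. The sign turned in 10 values, of which 1 was called, Sox30 from later round to elongating cells without TMM scaling (-0.57). At that same step the others were Rfx3 without TMM scaling (-0.59), Rfx2 with DESeq2 (0.081), and, with each mouse left out, Rfx2 (-0.096 to 0.051), Gtf2a1l (-0.31 to 0.030) and Mybl1 (-0.75 to 0.23). Sox5 turned from early spermatocyte-like to late meiotic cells with DESeq2 (-0.17), without TMM scaling (-0.24) and with a mouse left out (-0.42 to 0.34), and Gtf2a1l from late meiotic to later round cells without TMM scaling (-0.091). The cause was not tested. With 1 mouse left no test could be made, and such values carry none. Depth limits Mybl1 and Pou5f2 in spermatids (21 and 51 UMIs in elongating cells) and Rfx3 in late meiotic cells (39 UMIs).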
